A study of Ovis aries with 42 samples.

Results

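This account follows 4 sheep gene IDs whose change between reproductive phases, in RNA sequencing counts, differed in sign or size between the hypothalamus (HT) and the pars tuberalis (PT): ENSOARG00000001727, ENSOARG00000003561, ENSOARG00000010117 and ENSOARG00000007327. They are 4 of the 27054 IDs in the deposited count table, and all 4 were among the 17296 features that passed the filter on low counts. The values that chose them were the differences of phase changes in these same libraries. The choice names no contrast for each ID. Each was taken as chosen on the contrast in which it ranked 1 or 2 by p. Below, this is called the contrast that chose it. It was follicular minus anestrous for ENSOARG00000001727, luteal minus anestrous for ENSOARG00000003561 and ENSOARG00000010117, and luteal minus follicular for ENSOARG00000007327. The differences of phase changes are therefore given as a description, with no test. No gene name stands beside the IDs in the file, so what the 4 genes encode is not stated here, and the labelled tissues could not be checked against their marker genes.

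The libraries came from adult female Rasa Aragonesa sheep, a Spanish breed, with no genetic or drug treatment named in the labels. Each tissue was sampled in the luteal phase, the follicular phase and anestrus, with 7 libraries in each of the 6 groups and 42 in all. The labels do not tie a library to a ewe and do not say whether the 7 libraries of a group came from 7 ewes, so p-values measure the spread between these samples, which may be technical. In bulk tissue, fewer cells of a type and less RNA per cell cannot be told apart.

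As background, the hypothalamus holds the neurons that release gonadotropin-releasing hormone, and ovarian oestrogen and progesterone act on it during the cycle. The pars tuberalis surrounds the pituitary stalk, carries melatonin receptors and translates the length of the night into a thyrotropin signal to the neighbouring hypothalamus. In the luteal phase progesterone from the corpus luteum prevails, in the follicular phase oestrogen from growing follicles rises, and in anestrus, the season of long days, ovulation stops.

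Library totals ran from 14649356 to 37726207 counts. The 10 largest features took from 14.8% to 43.0% of a library's counts. Levels are in CPM, the counts of a feature scaled to a common library total. Library totals were first adjusted by TMM scaling, a library-wise correction that assumes that most features do not differ, with TMM factors from 0.663 to 1.45. Feature lengths were not used, so levels are compared within a feature and not between features. Pars tuberalis luteal libraries 22, 23 and 24 are shown apart below, because they held high values of some of the 4 features. Library 24 had 15477537 counts, 35.2% of them in its 10 largest features, and a TMM factor of 0.706, against 0.882 to 1.29 in the other 20 pars tuberalis libraries. Hypothalamus anestrous library 15 had 33586399 counts, the lowest share in the 10 largest features (14.8%) and the highest TMM factor (1.45).

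ENSOARG00000001727 was higher in the hypothalamus than in the pars tuberalis, and the order of the phases in one tissue was the reverse of that in the other. Its mean was highest in follicular, then luteal, then anestrous libraries of the hypothalamus, and highest in anestrous, then luteal, then follicular libraries of the pars tuberalis. The counts behind these levels ran from 47 in a follicular pars tuberalis library to 1113 in an anestrous hypothalamus library.

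In the hypothalamus, ENSOARG00000001727 ran from 17.8 to 37.2 CPM in follicular libraries (median 25.4), from 14.3 to 32.01 CPM in luteal ones (median 15.7) and from 9.54 to 22.8 CPM in anestrous ones (median 12.4). Of the 49 pairs of a follicular and an anestrous hypothalamus library, the follicular one was higher in 47, and 5 of 7 follicular libraries lay above all anestrous ones. Luteal library 2, at 32.01 CPM, stood apart from the other 6 luteal libraries, which ended at 18.1 CPM. In the pars tuberalis the same feature ran from 2.41 to 7.05 CPM in follicular libraries (median 4.49), from 5.64 to 9.61 CPM in luteal ones (median 6.13) and from 3.91 to 11.8 CPM in anestrous ones (median 8.31). There the follicular library was the higher one in 7 of 49 pairs with anestrous libraries, and the ranges overlapped.

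The follicular mean of ENSOARG00000001727 was 1.78 times the anestrous mean in the hypothalamus and 0.544 times it in the pars tuberalis. On the log2 scale, the fits of 21 libraries per tissue gave a change of 0.82 (95% interval 0.37 to 1.26) in the hypothalamus and -0.88 (95% interval -1.37 to -0.38) in the pars tuberalis. The difference of these changes in the fit of 42 libraries, pars tuberalis minus hypothalamus, was -1.70 ± 0.33 (SE). In the contrast that chose it, each member ranked 1 or 2 by p among the 17296 features. This is a consequence of the choice and of how that contrast was assigned. Libraries 22, 23 and 24 take no part in this contrast, and their values of 6.61, 5.64 and 8.42 CPM lay inside the 5.69 to 9.61 CPM of luteal libraries 25 to 28, but for library 23 just below it.

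ENSOARG00000003561 showed a mirrored order of the other kind. In the pars tuberalis its mean was highest in luteal, then follicular, then anestrous libraries, and in the hypothalamus it was highest in anestrous, then follicular, then luteal libraries. The anestrous groups of the 2 tissues met at nearly the same mean, with 5.65 ± 1.34 CPM in the pars tuberalis and 5.63 ± 1.97 CPM in the hypothalamus (SD, n = 7 each).

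In the pars tuberalis, ENSOARG00000003561 ran from 6.62 to 17.2 CPM in luteal libraries (median 7.60), from 5.24 to 7.94 CPM in follicular ones (median 6.11) and from 3.92 to 8.32 CPM in anestrous ones (median 5.49). Library 24 held the 17.2 CPM, while libraries 22 and 23, at 7.60 and 8.09 CPM, lay among the 6.62 to 8.56 CPM of libraries 25 to 28. Its high luteal pars tuberalis value was therefore that of 1 library rather than of 3. Hypothalamus libraries ran from 3.10 to 4.76 CPM in the luteal phase (median 3.72), from 3.40 to 4.94 CPM in the follicular phase (median 4.05) and from 4.05 to 9.34 CPM in anestrus (median 4.70). Anestrous libraries 15 and 20, at 9.34 and 7.32 CPM, were the high ones, and 5 of 7 luteal libraries lay below all anestrous ones.

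The luteal mean of ENSOARG00000003561 was 0.679 times the anestrous mean in the hypothalamus and 1.58 times it in the pars tuberalis, and the difference of the log2 changes was 1.21 ± 0.27 (SE). Without libraries 22, 23 and 24 that difference was 0.94 ± 0.26, without library 24 alone 0.98 ± 0.24, and without hypothalamus library 15 it was 1.02 ± 0.25. Limma-voom with sample weights, which gives libraries that vary more a lower weight, put it at 0.70 ± 0.24.

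ENSOARG00000010117 split the luteal pars tuberalis libraries into separate levels. Libraries 22, 23 and 24 held 109.1, 120.4 and 158 CPM, and the other 4 luteal libraries held 45.8 to 49.2 CPM, with a mean of 47.1 ± 1.67 CPM (SD, n = 4). The 3 high libraries lay above all 7 luteal hypothalamus libraries, which ran from 57.7 to 76.6 CPM (median 73.9), and the other 4 lay below all of them. No luteal pars tuberalis library fell inside the hypothalamus range.

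Follicular pars tuberalis libraries of ENSOARG00000010117 ran from 37.5 to 50.0 CPM (median 40.7) and anestrous ones from 38.2 to 57.2 CPM (median 46.0). The mean of luteal libraries 25 to 28 was 1.0004 times the anestrous mean, and that of libraries 22 to 24 was 2.74 times it. In the hypothalamus the follicular libraries ran from 71.4 to 102 CPM (median 76.7) and the anestrous ones from 73.5 to 130.2 CPM (median 90.5), where library 15 was the highest. The luteal library was higher than the anestrous one in 4 of 49 hypothalamus pairs.

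The luteal minus anestrous change of ENSOARG00000010117 was -0.43 (95% interval -0.67 to -0.18) on the log2 scale in the hypothalamus and 0.79 (95% interval 0.29 to 1.29) in the pars tuberalis. The difference of the changes was 1.21 ± 0.28 (SE). Without libraries 22, 23 and 24 the pars tuberalis change was -0.0056 ± 0.12, the difference between tissues was 0.41 ± 0.17, and the luteal minus follicular change in the pars tuberalis was 0.12 in place of 0.92. Leaving out library 22, 23 or 24 alone gave 1.13, 1.10 and 0.98.

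ENSOARG00000007327 was lowest in the follicular pars tuberalis. There it ran from 1.40 to 2.19 CPM (median 1.78), against 2.33 to 4.59 CPM in anestrous pars tuberalis libraries (median 3.17), and these ranges did not overlap, which held for 0.11% of the features tested. The follicular pars tuberalis libraries are among those the choice used, so nothing is read from that share. Luteal pars tuberalis libraries ran from 1.91 to 13.8 CPM (median 3.97), and 6 of the 7 lay above all follicular ones. Counts of this feature were low, from 29 to 56 in the follicular and from 49 to 151 in the luteal pars tuberalis.

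Library 24 held 13.8 CPM of ENSOARG00000007327, and libraries 22 and 23 held 4.21 and 4.41 CPM. Both of the latter lay above the 1.91 to 3.97 CPM of libraries 25 to 28 by a small margin, and inside the range of the luteal hypothalamus. Hypothalamus libraries ran from 2.55 to 6.20 CPM in the luteal phase (median 4.51), from 3.79 to 7.66 CPM in the follicular phase (median 4.81) and from 3.54 to 9.73 CPM in anestrus (median 6.72), and these ranges overlapped in every pair.

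The luteal mean of ENSOARG00000007327 was 0.884 times the follicular mean in the hypothalamus and 2.81 times it in the pars tuberalis, and the difference of the log2 changes was 1.65 ± 0.40 (SE). The log2 change in the hypothalamus was -0.18 (95% interval -0.66 to 0.29). The difference was 0.94 ± 0.33 without libraries 22, 23 and 24, and 1.16 ± 0.32 without library 24 alone. Limma-voom with sample weights put it at 1.12 ± 0.33. The luteal minus anestrous change in the pars tuberalis turned from 0.49 to -0.21 without the 3 libraries. Luteal libraries 25 to 28 still averaged 1.695 times the follicular pars tuberalis mean.

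**Figure D1:**
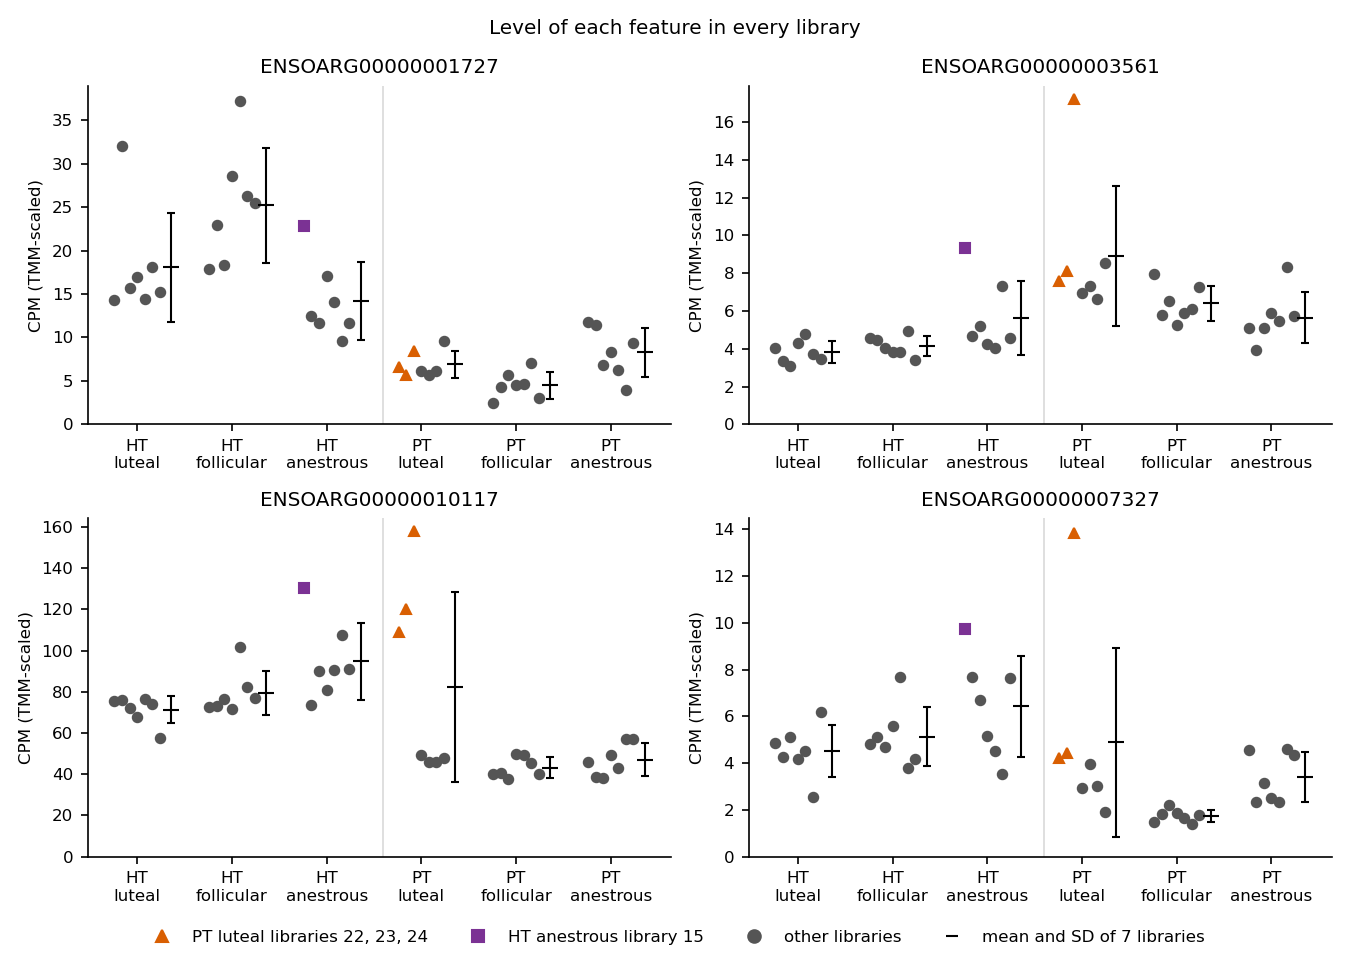
Level of the 4 features in CPM (vertical axis, linear, from 0) in each of the 42 libraries, by tissue and phase, with the mean and SD of each group of 7 as a black bar. Triangles are pars tuberalis luteal libraries 22, 23 and 24, which stand at 109.1 to 158 CPM for ENSOARG00000010117 against 45.8 to 49.2 CPM in the other 4 luteal libraries, and the square is hypothalamus anestrous library 15.

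The phase changes in each tissue can be set side by side, with the reminder that changes against anestrus share the anestrous libraries. In the hypothalamus, ENSOARG00000003561, ENSOARG00000010117 and ENSOARG00000007327 all had their highest mean in anestrus, and ENSOARG00000001727 had its lowest there. In the pars tuberalis, ENSOARG00000010117 and ENSOARG00000007327 had their highest mean in the luteal phase and their lowest in the follicular phase. The sign of the phase difference that chose each feature was opposite in the tissues for all 4 with all libraries included. Without libraries 22, 23 and 24 that of ENSOARG00000010117 in the pars tuberalis was near 0, at -0.0056 ± 0.12 (SE), so its sign is not read. Opposite signs held for 46.2% of all features in luteal minus anestrous, 43% in follicular minus anestrous and 43.2% in luteal minus follicular, and nothing is read from the count of 4, since the choice was made on it.

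Outside the contrast taken to have chosen it, ENSOARG00000001727 had differences of -0.61 ± 0.32 (SE) for luteal minus anestrous and 1.09 ± 0.33 for luteal minus follicular. The luteal phase lay between the other phases in the difference between tissues. ENSOARG00000003561 had 0.62 ± 0.27 for follicular minus anestrous and 0.59 ± 0.27 for luteal minus follicular. For ENSOARG00000010117 the same values were 0.13 ± 0.28 and 1.08 ± 0.28, the smaller of them without the luteal phase. For ENSOARG00000007327 follicular minus anestrous gave -0.63 ± 0.40 and luteal minus anestrous 1.02 ± 0.40.

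Over all features, the difference of phase changes passed an adjusted p of 0.05 for 0 of 17296 features (0%) in each of the 3 contrasts with edgeR's quasi-likelihood test. An unadjusted p under 0.05 was found for 719, 1154 and 552 features (4.16%, 6.67% and 3.19%) in luteal minus anestrous, follicular minus anestrous and luteal minus follicular. DESeq2 called 10, 30 and 3 of the 23591 features with any count (0.0424%, 0.127% and 0.0127%) at an adjusted p under 0.05. It was run without the filter on low counts, so these shares are not on the same base as those of edgeR. Limma-voom with sample weights called 0 in each (0%). The contrasts within a tissue also called 0 features with edgeR (0%) in all 6 cases. Within the hypothalamus an unadjusted p under 0.05 was found for 4.44% of 16350 features in luteal minus anestrous, 10.3% in follicular minus anestrous and 1.14% in luteal minus follicular. Within the pars tuberalis the shares of 16301 features were 3.23%, 6.47% and 8.47% in the same order.

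**Figure D2:**
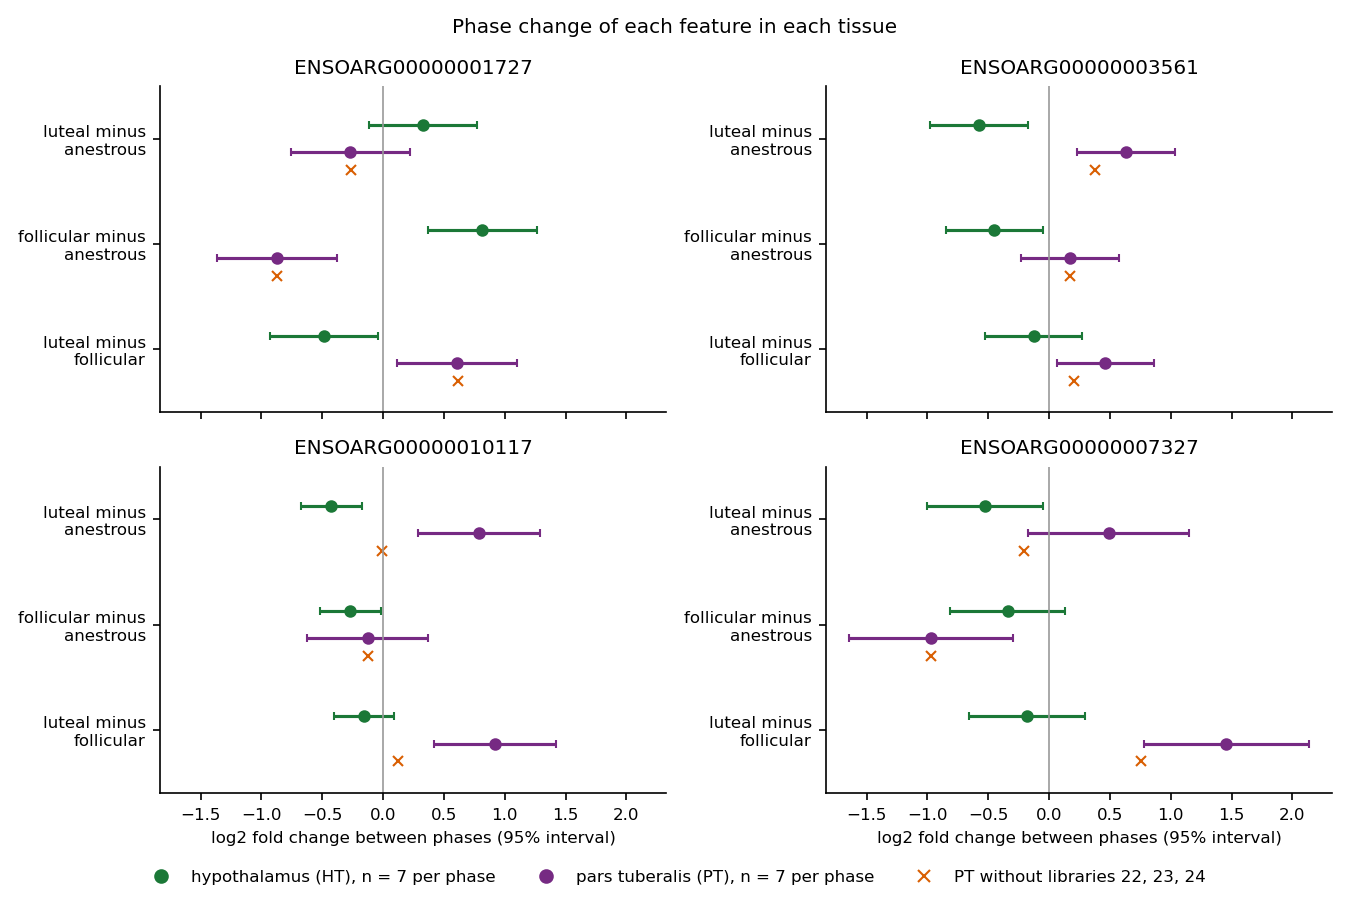
Log2 fold change between phases (horizontal axis, with 95% interval) of each feature in the hypothalamus (green) and the pars tuberalis (purple), from the fit of the 21 libraries of each tissue, with crosses for the pars tuberalis without libraries 22, 23 and 24. For ENSOARG00000001727 the follicular minus anestrous changes lie on opposite sides of 0 (0.82 and -0.88), and for ENSOARG00000010117 the cross of luteal minus anestrous lies at -0.0056.

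In the phase outside the contrast that chose a feature, the tissues were compared by a test, and all 4 features differed there. This test is separate from the choice only so far as the choice rested on that contrast alone, which is not known. Other contrasts that hold the tested phase also ranked the members high by p of 17296 features. In luteal minus follicular ENSOARG00000010117 ranked 5, ENSOARG00000001727 16 and ENSOARG00000003561 372. In luteal minus anestrous ENSOARG00000007327 ranked 240. The remaining contrast that holds the tested phase ranked each member lower, from 633 to 11376. The p-values of the members are therefore not read as independent of the choice. The fit also shares its estimate of the spread over all 6 groups. In the luteal phase 54.8% of all features passed, 25.8% higher and 29% lower in the pars tuberalis. ENSOARG00000001727 was lower there, at 6.89 ± 1.53 CPM against 18.1 ± 6.28 CPM in the hypothalamus (SD, n = 7 each). Its log2 fold change was -1.40 ± 0.23 (SE; adjusted p = 4.41e-06, edgeR). All 7 pars tuberalis libraries lay below all 7 hypothalamus libraries, and such a lack of overlap held for 24.7% of features in the luteal phase. Without hypothalamus library 2 the log2 fold change was -1.20.

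In follicular libraries 59.8% of features passed, 28.6% higher and 31.2% lower in the pars tuberalis, and the 2 members tested in this phase lay on opposite sides. ENSOARG00000003561 was higher there, at 6.396 ± 0.929 CPM against 4.15 ± 0.526 CPM in the hypothalamus (SD, n = 7 each), a log2 difference of 0.62 ± 0.19 (SE; adjusted p = 0.00512, edgeR). ENSOARG00000010117 was lower there, at 43.3 ± 4.92 CPM against 79.3 ± 10.6 CPM, a log2 difference of -0.88 ± 0.20 (SE; adjusted p = 0.000253, edgeR). For both features the 7 libraries of one tissue lay entirely to one side of the 7 of the other, as for 30.6% of features in this phase.

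In anestrous libraries 55.7% of features passed, 25.3% higher and 30.4% lower in the pars tuberalis. ENSOARG00000007327 was lower there, at 3.41 ± 1.06 CPM against 6.42 ± 2.14 CPM (SD, n = 7 each), a log2 difference of -0.92 ± 0.28 (SE; adjusted p = 0.00592, edgeR). Without library 15 it was -0.79 (adjusted p = 0.0187, edgeR). The ranges overlapped, which they did not for 23% of features, and the pars tuberalis library was the higher one in 5 of 49 pairs.

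Two-sided exact permutation tests on log2(CPM + 0.5) over the 14 libraries of each phase gave p = 0.000583 for ENSOARG00000001727, ENSOARG00000003561 and ENSOARG00000010117, the smallest p that 3432 regroupings allow, and p = 0.00758 for ENSOARG00000007327 (Benjamini-Hochberg adjusted over the 4 tests, 0.000777 and 0.00758). Since from 54.8% to 59.8% of all features differed between the tissues in a phase, nothing particular to the 4 is read from this.

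Averaged over the 3 phases, 75% of features differed between the tissues, 35.6% higher and 39.4% lower in the pars tuberalis. For the members this average is a description with no test, since it includes the libraries that chose them. On the log2 scale it was 0.61 ± 0.11 (SE) for ENSOARG00000003561, -1.56 ± 0.14 for ENSOARG00000001727, -0.56 ± 0.11 for ENSOARG00000010117 and -0.79 ± 0.16 for ENSOARG00000007327. Without luteal libraries 22, 23 and 24 the values of the last 2 were -0.83 ± 0.07 and -1.03 ± 0.14. Scaling to total counts alone turned the split of features called higher and lower in the pars tuberalis. It went from 4465 and 5021 to 4932 and 3467 in the luteal phase, from 4940 and 5405 to 5263 and 3979 in the follicular phase, from 4382 and 5259 to 5182 and 3774 in anestrus, and from 6158 and 6807 to 6910 and 5471 averaged over the phases. The members' tested differences kept their direction and passed in that scaling too.

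The difference between the tissues varied with the phase as the choice of these features requires. On the log2 scale, pars tuberalis minus hypothalamus, ENSOARG00000001727 lay at -1.40 in luteal, -2.49 in follicular and -0.78 in anestrous libraries, with the hypothalamus higher in each. ENSOARG00000003561 lay at 1.21, 0.62 and 0.0022 in the same order. ENSOARG00000010117 and ENSOARG00000007327 lay near 0 in the luteal phase, at 0.20 ± 0.20 and 0.10 ± 0.28 (SE), and below 0 in the follicular phase (-0.88 and -1.55) and anestrus (-1.01 and -0.92). The luteal value of ENSOARG00000010117 averages libraries on both sides of the hypothalamus: libraries 22 to 24 had 1.81 times the luteal hypothalamus mean and libraries 25 to 28 had 0.66 times it. For ENSOARG00000007327 the same ratios were 1.65 and 0.652, and library 24 alone of the 3 lay above the range of the luteal hypothalamus.

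**Figure D3:**
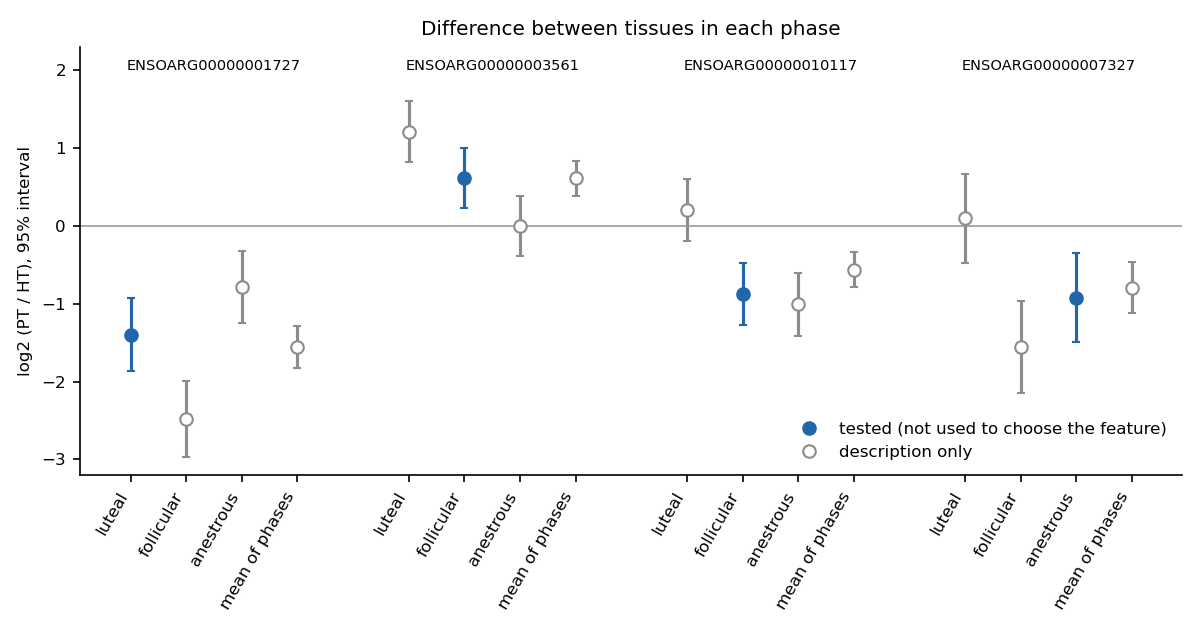
Log2 ratio of pars tuberalis to hypothalamus (vertical axis, with 95% interval) for each feature in each phase and averaged over the phases, from the fit of 42 libraries. Filled points are the tested comparisons, 1 for each feature, in the phase outside the contrast taken to have chosen it, such as -1.40 for ENSOARG00000001727 in luteal libraries. They are separate from the choice only so far as it rested on that contrast alone. Open points are a description.

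The 6 groups were ordered by mean level as a description, since these levels entered the choice. Steps between neighbouring groups are set against the spread of their libraries, which is not an error of the mean. For ENSOARG00000001727 the order was hypothalamus follicular (25.2 ± 6.62 CPM), hypothalamus luteal (18.1 ± 6.28), hypothalamus anestrous (14.2 ± 4.46), pars tuberalis anestrous (8.28 ± 2.86), pars tuberalis luteal (6.89 ± 1.53) and pars tuberalis follicular (4.498 ± 1.55, all SD, n = 7 each). Hypothalamus luteal and anestrous, and pars tuberalis anestrous and luteal, did not differ beyond their spread, taken as the larger of the SDs, and all neighbouring ranges overlapped. For ENSOARG00000003561 no neighbours differed beyond their spread, from 8.91 ± 3.71 CPM in the luteal pars tuberalis down to 3.82 ± 0.585 CPM in the luteal hypothalamus. The luteal SD in the pars tuberalis includes library 24, at 17.2 CPM. The luteal library was the higher one in 43 of 49 pairs with follicular pars tuberalis libraries.

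For ENSOARG00000010117 a single step exceeded the spread, that from the luteal hypothalamus (71.4 ± 6.72 CPM) to the anestrous pars tuberalis (47.1 ± 7.89 CPM), and the ranges on its sides did not overlap. The luteal pars tuberalis, at 82.3 ± 46.3 CPM, ranked above the follicular and luteal hypothalamus by its mean, although 4 of its 7 libraries lay below all of theirs. For ENSOARG00000007327 the steps beyond the spread were from the luteal hypothalamus (4.53 ± 1.11 CPM) to the anestrous pars tuberalis (3.41 ± 1.06 CPM) and from there to the follicular pars tuberalis (1.74 ± 0.265 CPM).

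Over all groups, the spread of the 4 features between libraries lay on both sides of that of the median feature. Their biological coefficient of variation in the 42-library fit, the spread that remains beyond counting noise, was 29.7% for ENSOARG00000001727, 24.5% for ENSOARG00000003561, 25.99% for ENSOARG00000010117 and 35.9% for ENSOARG00000007327, against a median of 30.8% over all features. Within groups it was uneven. ENSOARG00000010117 had an SD of 9.41% of its mean in the luteal hypothalamus and 56.3% in the luteal pars tuberalis, and ENSOARG00000007327 had 15.2% in the follicular and 82.4% in the luteal pars tuberalis.

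Libraries 22, 23 and 24 were not equally high for the 4 features. Their mean was 2.74 times that of libraries 25 to 28 for ENSOARG00000010117, 2.54 times for ENSOARG00000007327, 1.49 times for ENSOARG00000003561 and 1.001 times for ENSOARG00000001727. All 3 lay above libraries 25 to 28 for ENSOARG00000010117 and ENSOARG00000007327, as they did for 895 of the 17296 features (5.17%), and all 3 lay above the other 18 pars tuberalis libraries for ENSOARG00000010117, as for 215 features (1.24%). A ratio as high as that of ENSOARG00000010117 was reached by 2.37% of features, and one as high as that of ENSOARG00000007327 by 2.87%. These libraries were set apart for their high values of the members and entered their choice, so nothing is read from these shares.

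Scaling bore on library 24, whose TMM factor was low. With scaling to total counts alone, libraries 22, 23 and 24 held 128, 150.4 and 112 CPM of ENSOARG00000010117 against 43.1 to 59.95 CPM in libraries 25 to 28, so all 3 remained above and library 24 was the lowest of them. In that scaling they held 4.93, 5.51 and 9.76 CPM of ENSOARG00000007327 against 2.40 to 4.19 CPM. For ENSOARG00000003561 they held 8.91, 10.1 and 12.1 CPM against 6.15 to 10.7 CPM. What sets these libraries apart was not tested.

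Library 15 was the highest of the 7 anestrous hypothalamus libraries for all 4 features, at 22.8, 9.34, 130.2 and 9.73 CPM in the order ENSOARG00000001727, ENSOARG00000003561, ENSOARG00000010117 and ENSOARG00000007327. It was the highest of its group for 27.8% of all features and the lowest for 24.9%. For ENSOARG00000001727 it raised the anestrous hypothalamus toward the follicular level, and without it the difference of the follicular minus anestrous changes was -1.86 ± 0.32 (SE). For ENSOARG00000003561 and ENSOARG00000010117 it lay on the side away from the luteal level, and without it the differences were 1.02 ± 0.25 and 1.10 ± 0.27. It takes no part in the contrast that chose ENSOARG00000007327.

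**Figure D4:**
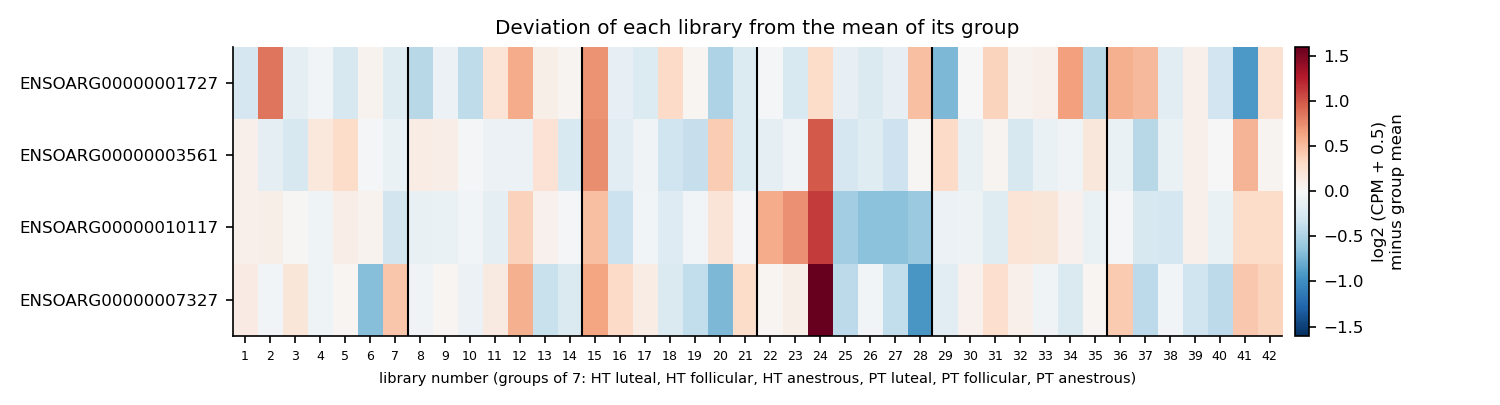
Deviation of log2(CPM + 0.5) from the mean of the library's own group of 7 (colour) for each feature (rows) and library number (columns, with lines between groups). Libraries 22, 23 and 24 are above their group mean for ENSOARG00000010117 by 0.59, 0.73 and 1.12 and libraries 25 to 28 are below it, library 24 stands out for 3 of the 4 features, and library 15 is positive for all 4.

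Within the groups the 4 features did not all vary together. Correlations of the deviations from the group means are given as a description over libraries that share their depth, scaling and makeup. Over the 21 pars tuberalis libraries, r was 0.73 for ENSOARG00000010117 and ENSOARG00000007327, 0.69 for ENSOARG00000003561 and ENSOARG00000007327 and 0.58 for ENSOARG00000003561 and ENSOARG00000010117. Over the 21 hypothalamus libraries the same pairs gave 0.09, 0.05 and 0.59. Over all 42 libraries they gave 0.56, 0.45 and 0.56, and over the 39 without libraries 22, 23 and 24 they gave 0.18, 0.11 and 0.49. ENSOARG00000001727 had correlations from -0.15 to 0.12 with the other 3 over the 42 libraries. With ENSOARG00000003561, ENSOARG00000010117 and ENSOARG00000007327 in turn it had -0.0040, 0.42 and 0.28 in the hypothalamus. In the pars tuberalis these were -0.25, 0.0099 and 0.0026.

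The features whose levels over the 42 libraries were most like each member are given by ID, with the correlation of log2(CPM + 0.5) as the measure. For ENSOARG00000001727 they were ENSOARG00000017047 (r = 0.89), ENSOARG00000015724 (0.88) and ENSOARG00000008132 (0.88). All 3 had the same order of the phases in the hypothalamus as ENSOARG00000001727, from follicular to luteal to anestrous. They were picked by correlation over these same 42 libraries, so nothing is read from the shared order. In the hypothalamus ENSOARG00000017047 lay at 156 ± 49.8, 112 ± 39.3 and 79.4 ± 32.3 CPM (SD, n = 7 each). Its pars tuberalis means, with the phases in the same sequence, were 10.8 ± 3.31, 13.03 ± 3.44 and 13.1 ± 6.07 CPM. By its means ENSOARG00000015724 also kept the order of ENSOARG00000001727 in the pars tuberalis. It was very low there, at 0.160 ± 0.193, 0.522 ± 0.639 and 0.810 ± 0.791 CPM in the same sequence, with SDs near the means or above them. ENSOARG00000008132 did not keep the order, with its highest mean there in the luteal phase (42.1 ± 11.2 CPM, against 40.7 ± 7.78 in anestrus). As many as 12.5% of features had a correlation over 0.7 with ENSOARG00000001727, which differs strongly between the tissues. Once the group means were subtracted the highest correlations were 0.62, 0.60 and 0.60, with ENSOARG00000025705, ENSOARG00000005338 and ENSOARG00000012221.

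For ENSOARG00000010117 the likest features were ENSOARG00000015316 (r = 0.89), ENSOARG00000019652 (0.89) and ENSOARG00000007878 (0.88), and 1.03% of features exceeded 0.7. ENSOARG00000007878 was also the likest to ENSOARG00000007327 (0.87), followed by ENSOARG00000021039 (0.86) and ENSOARG00000016422 (0.85). For each of these 5 features, libraries 22, 23 and 24 all lay above libraries 25 to 28, and library 24 was the highest. Libraries 22, 23 and 24 all lay above libraries 25 to 28 for 5.17% of all features. The 5 were picked by correlation over libraries that include these 3, so nothing is read from the shared split. ENSOARG00000015316 held 34.99, 26.4 and 84.6 CPM in libraries 22, 23 and 24 against 12.4 to 16.04 CPM in libraries 25 to 28. For ENSOARG00000021039 libraries 22 and 23, at 5.84 and 4.91 CPM, lay close above the 1.53 to 4.23 CPM of libraries 25 to 28, and library 24 held 19.3 CPM. The means of the 5 in libraries 22 to 24 and in libraries 25 to 28 were 48.7 and 14.4 CPM for ENSOARG00000015316, 57.6 and 27.3 CPM for ENSOARG00000019652, 31.9 and 8.13 CPM for ENSOARG00000007878, 10.02 and 2.71 CPM for ENSOARG00000021039, and 18.2 and 7.04 CPM for ENSOARG00000016422. Without the 3 libraries the correlations with the members ranged from 0.83 to 0.92.

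With the group means subtracted, ENSOARG00000010117 was most like ENSOARG00000014531 (r = 0.87), ENSOARG00000016594 (0.85) and ENSOARG00000019652 (0.85), and without libraries 22 to 24 these correlations were 0.65, 0.53 and 0.73. ENSOARG00000007327 was then most like ENSOARG00000018779 (0.82), ENSOARG00000002751 (0.80) and ENSOARG00000017605 (0.79), which gave 0.63, 0.64 and 0.58 without those libraries. For ENSOARG00000003561 the likest features by level were ENSOARG00000024514 (0.76), ENSOARG00000011093 (0.75) and ENSOARG00000011249 (0.74), and with the group means subtracted ENSOARG00000009713 (0.66), ENSOARG00000016292 (0.66) and ENSOARG00000010360 (0.66). Without libraries 22 to 24 these gave 0.67, 0.73 and 0.74 by level, and 0.70, 0.57 and 0.53 with the group means subtracted. ENSOARG00000024514 was very low, with means of 0.104 CPM in the hypothalamus and 0.458 CPM in the pars tuberalis. A correlation over 0.7 with ENSOARG00000003561 was reached by 0.0752% of features.

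The difference of phase changes that chose each feature kept its sign when any 1 of the 42 libraries was left out. It ran from -1.86 to -1.58 for ENSOARG00000001727, from 0.98 to 1.33 for ENSOARG00000003561, from 0.98 to 1.32 for ENSOARG00000010117 and from 1.16 to 1.79 for ENSOARG00000007327. The lowest value of the last 3 came without library 24 in each case.

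**Figure D5:**
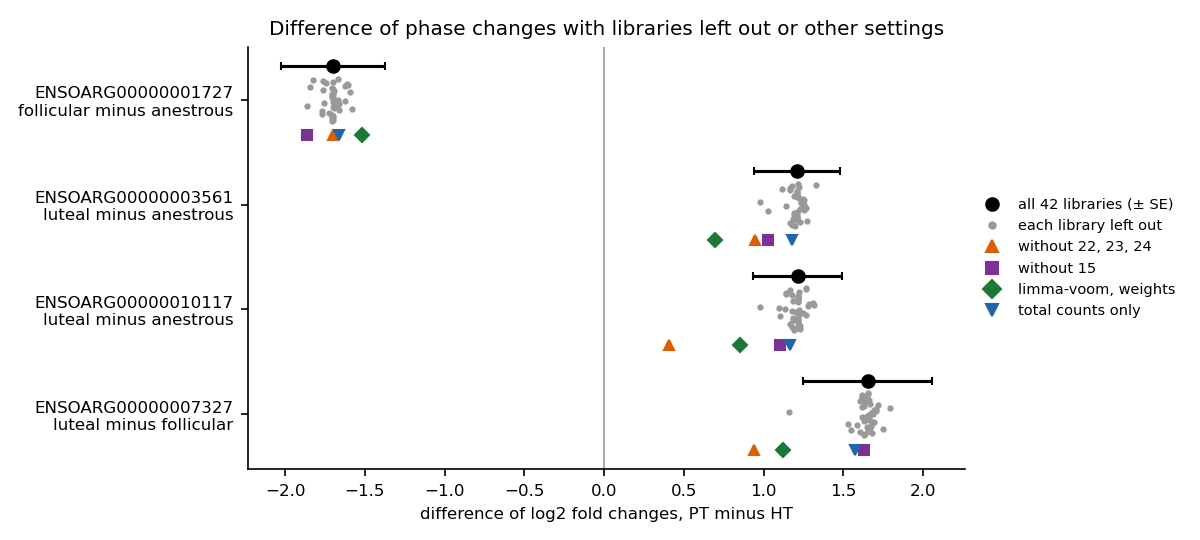
Difference of the log2 phase changes, pars tuberalis minus hypothalamus (horizontal axis), in the contrast that chose each feature: black points with SE for all 42 libraries, small grey points for each library left out in turn, and coloured symbols for other settings. The triangle of ENSOARG00000010117, without libraries 22, 23 and 24, lies at 0.41 against 1.21 with all libraries, and that of ENSOARG00000001727 is at -1.70 in both.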

How the data were processed

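A table of gene counts was deposited by the authors, in whole reads with no normalization and 1 column for each of the 42 libraries. The submitters' processing notes name DESeq2, FastQC 0.11.5, HISAT2 2.1.0, R 3.5.1, SAMtools 1.7, StringTie 1.3.5 and Trimmomatic 0.38, with no role. How strand and shared reads were treated, and on which genome build, is not given in the sources used here. Counts of overlapping or near-identical genes are therefore uncertain. All 42 columns matched a sample by library number, tissue and phase. The reference gene table (ARS-UI_Ramb_v3.0) matched 0 of the IDs, so the marker lists drawn up for the tissues could not be used.

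Counts were tested with edgeR's robust quasi-likelihood test (edgeR 4.0.16, R 4.3.3) after TMM scaling and filterByExpr at a minimum count of 10, with p-values adjusted by the Benjamini-Hochberg method over all features tested and a threshold of 0.05. Contrasts between tissues used 1 fit of all 42 libraries in 6 groups, and phase contrasts within a tissue 1 fit of its 21 libraries. The tissue difference averaged over the phases was planned as a test of the members and is given as a description. CPM use the TMM-adjusted library size, and log2 values per library a pseudocount of 0.5. Alternatives were DESeq2 1.42.0, limma-voom with sample weights (limma 3.58.1), RLE factors, other filters, fewer libraries and each library left out. Scaling to total counts alone was added after the low TMM factor of library 24 was seen. The features named for likeness were the 3 with the highest correlation by level and the 3 by deviation from the group mean. The members, the tests and this rule were chosen with earlier results of these data known. The scripts were tested on simulated data.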

Additional observations from a re-analysis of the deposited data

Results flagged for a closer look

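In each group of 7 libraries the highest or lowest value of each feature was compared with its nearest neighbour, and 4 of the 24 groups examined held a library whose gap to the next was a larger share of the group's range than Dixon's 95% critical value for 7 samples. Chance alone flags about 5% of groups, but nothing is read from the number found, since the luteal pars tuberalis libraries entered the choice of the features and library 24 was set apart for its high values. ENSOARG00000001727 reached 32.01 CPM in luteal hypothalamus library 2, while the other 6 ran from 14.3 to 18.1 CPM. ENSOARG00000010117 reached 102 CPM in follicular hypothalamus library 12, while the others ran from 71.4 to 82.4 CPM. Luteal pars tuberalis library 24 stood apart for ENSOARG00000003561, at 17.2 CPM against 6.62 to 8.56 CPM, and for ENSOARG00000007327, at 13.8 CPM against 1.91 to 4.41 CPM. Libraries 22, 23 and 24 of ENSOARG00000010117 were not found by this comparison, which looks for a single distant library.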

How the results depend on the processing

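The 4 tissue differences that were tested, each in the phase outside the contrast that chose its feature, kept their direction and an adjusted p under 0.05 under every alternative run, leaving out each library included. Counts of features called moved as follows. DESeq2 called 10, 30 and 3 features for the difference of phase changes in luteal minus anestrous, follicular minus anestrous and luteal minus follicular, where edgeR called 0. Within the hypothalamus DESeq2 called 3 for luteal minus anestrous and 72 for follicular minus anestrous, and within the pars tuberalis 4, 6 and 14 for luteal minus anestrous, follicular minus anestrous and luteal minus follicular, again against 0 with edgeR. Without library 15 edgeR called 47 features for the difference in follicular minus anestrous and 890 for that contrast within the hypothalamus. Leaving out each library in turn gave from 0 to 47 calls for the former: 47 without library 15, 18 without 20, 17 without 21, 16 without 18, 11 without 14, 5 without 34, 2 without 38 or 40, and 1 without 2, 36 or 41. The cause of these shifts was not tested. Without libraries 22, 23 and 24 the luteal minus anestrous change in the pars tuberalis fell to near 0 for ENSOARG00000010117 (-0.0056 ± 0.12, SE). For ENSOARG00000007327 it turned negative, within its error (-0.21 ± 0.25, SE). Scaling to total counts alone moved the median tissue difference by 0.15 on the log2 scale averaged over the phases and turned the split of features called higher and lower in the pars tuberalis in each phase. No paired analysis was possible because the labels give each library its own number and no ewe. With 29 to 56 counts of ENSOARG00000007327 in follicular pars tuberalis libraries, depth limits the precision of its level there.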
